A study of Arabidopsis thaliana with 6 samples.

Results

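The genes described here were the SMALL AUXIN UP RNA (SAUR) genes of Arabidopsis thaliana that lie side by side in 6 genomic clusters, together with 5 that lie alone. They were chosen by locus code: each array probe was kept if its locus was one of 36 SAUR loci, whatever the signal of that probe. The loci themselves were chosen with earlier results of these data known. The 36 loci were among 29030 locus codes on the array and carried 40 probes. Of the 36, 32 were bright enough to be tested, among 21590 genes tested in all. The array was an Agilent Arabidopsis 44K microarray, hybridised in one colour. Total RNA came from 3 hy5 arrays and 3 wild-type (WT) arrays. The hy5 seedlings carried the insertion SALK_096651 in HY5, a bZIP transcription factor that promotes development in the light, so the mutant was represented by a single insertion line. Both genotypes were of the Col cultivar, 3 days old, and grown in continuous white light. The labels left unsaid if the replicates came from separate cultures, so p-values measure the spread between these arrays, which may be technical, and their number limits the precision.

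SAUR genes encode short proteins, and many are transcribed within minutes of auxin treatment. At the plasma membrane, SAUR proteins of the kind typified by SAUR19 and SAUR9 inhibit type 2C protein phosphatases of clade D. This keeps plasma membrane proton ATPases phosphorylated and active, which acidifies and loosens the cell wall. The family arose largely by tandem duplication, so members of a cluster are often nearly alike in sequence. In seedlings some SAUR genes promote hypocotyl elongation, and others are turned up by light in cotyledons, where they promote expansion.

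The clusters did not move alike. All 6 genes of the SAUR19-SAUR24 cluster were higher in hy5 than in WT by at least 2-fold, with a median log2 difference (hy5 minus WT) of 1.58, or 3.0-fold. Each of the other clusters had a median between 0.38 and 0.56, and the 4 tested lone genes had a median of 0.78. In the AT4G38840 and AT2G21200 clusters of 3 tested genes, 1 gene each was too dim in WT to rise well above background. The bound that its signal allows was under 1-fold. With that gene set to no change, both medians were 0.00. Over the 32 tested members, 9 rose by the rule used throughout, a limma adjusted p under 0.05 with at least a 2-fold change. That is 28.1% of them, against 6.55% of all genes tested. None fell by the same rule, against 4.84% of all genes. At an unadjusted p under 0.05 limma placed 1 member lower and 24 higher, and the methods' t-test placed 1 lower and 15 higher. No share of all genes is given for counts at the unadjusted p, here or below, so they have no reference. With the adjusted p alone and no fold limit, 19 members were higher, or 59.4%, against 26.3% of all genes, and 1 was lower, against 26.6%. The median over the 32 was 0.64 (range -0.36 to 1.82), beside -0.00444 over all genes.

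The direction of some differences under 2-fold changed with the processing of background. In the values above the scanner software had subtracted it. When background was instead modelled from the raw signals with normexp, the median of all genes moved to -0.199 and the split of all called genes became 529 higher and 724 lower, in place of 1414 higher and 1046 lower. Members with a positive difference then numbered 19 of 32, in place of 28, although 23 of 32 lay above the shifted median of all genes. All 6 members of the SAUR19-SAUR24 cluster stayed positive and 4 of them kept at least a 2-fold rise, whereas the medians of 3 small clusters changed sign, as given below for each. The normexp setting also added an offset of 50 to every signal before scaling. The 75th percentile of the processed signals was 981.4 to 1057 on hy5 arrays and 487.2 to 557.7 on WT arrays. An equal offset is therefore a larger share of it on WT arrays, and it weighs most on dim probes. The part of this offset in the changes of sign was not tested.

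**Figure D1:**
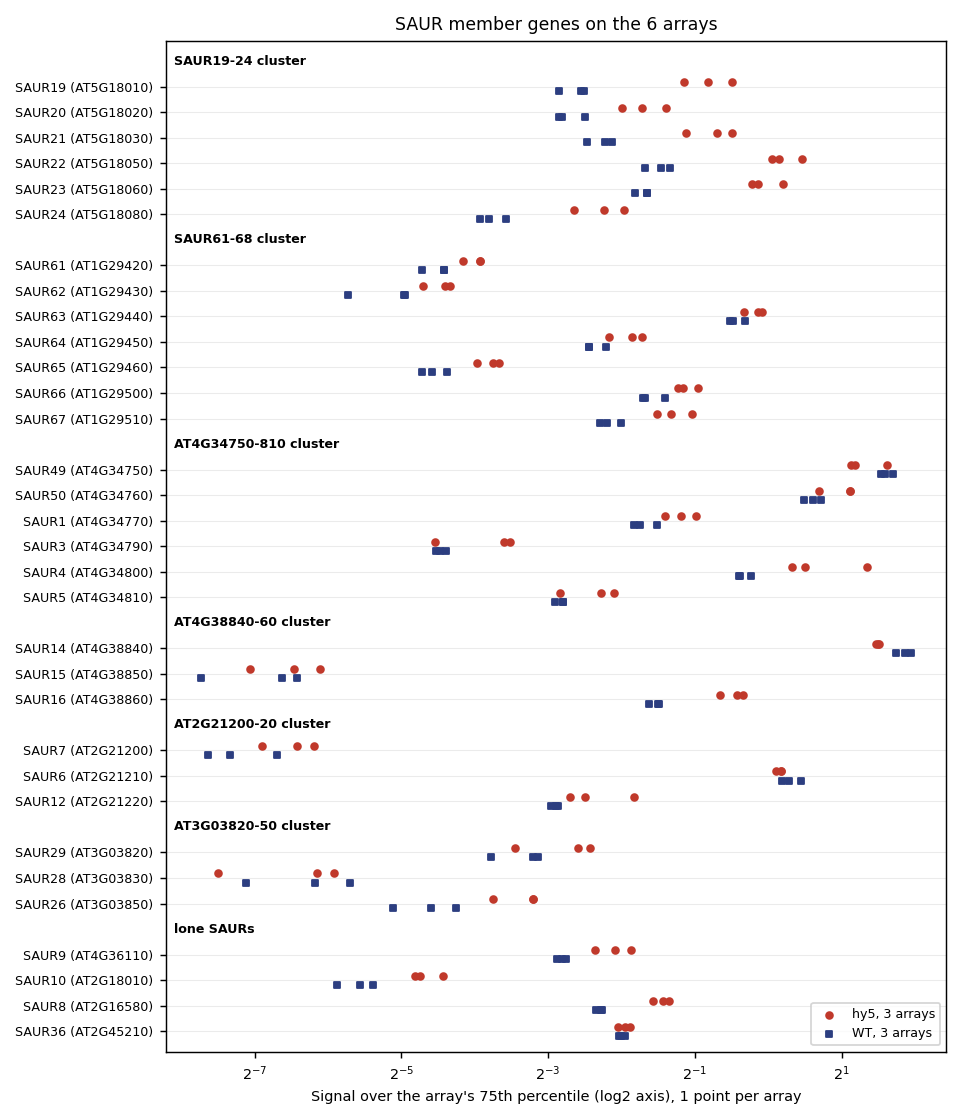
Signal of each tested SAUR member on each array, as a multiple of that array's 75th percentile on a log2 axis, grouped by genomic cluster, with hy5 above WT for each gene. The hy5 points lie above all WT points for 20 of the 32 genes and below them for 2, SAUR14 and SAUR6; each point is 1 array. The share of all genes tested that separate in this way is not given here, so these counts have no reference.

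HY5 (AT5G11260) checked the labels. Its signal was 0.0217, 0.0283 and 0.0169 of the array's 75th percentile on the hy5 arrays, against 1.32, 1.38 and 1.24 on the WT arrays, a log2 difference of -5.91 (SE 0.178, limma adjusted p = 7.57e-06). The 75th percentile itself was 981.4 to 1057 intensity units on hy5 arrays and 487.2 to 557.7 on WT arrays, and 75.4 to 78.7% of hy5 spots and 67 to 71.2% of WT spots were well above background. Before scaling, the 10 spike-in control probes had ratios of hy5 over WT from 0.621 to 1.01. Why the 75th percentile differed between the genotypes was not tested. All hy5 arrays lay on one slide and all WT arrays on another, so slide and genotype cannot be told apart. Seed-stage transcripts (storage proteins, oleosins and Em proteins) were also higher in hy5: 10 of 11 rose, against 6.55% of all genes tested. Their median was 2.84, with summed scaled signals of 7.5 to 14 on hy5 arrays and 0.765 to 1.66 on WT arrays. The methods' t-test, unadjusted, placed 6 of the 11 higher by at least 2-fold. Of the 11, SESA1 did not rise well above background in WT. CRU2, OLEO2 and SESA4 were well above background on 2 of the 3 WT arrays. Green cotyledon transcripts summed to 1860 to 2070 on hy5 arrays and 2560 to 2980 on WT arrays. None of the 7 passed the 2-fold rule, and 6 of 7 were lower by the limma adjusted p alone, against 26.6% of all genes. The same number were lower at the unadjusted p and by the methods' t-test. The other, LHCB2.1 (AT2G05100), had a log2 difference of -0.05 (SE 0.14, limma adjusted p = 0.772). All 4 root hair markers were higher by the adjusted p alone, against 26.3% of all genes, and 3 by the methods' t-test. None was higher by 2-fold, and they summed to 10.7 to 13.1 on hy5 arrays and 6.96 to 9.52 on WT arrays. The part that any of these shifts had in the SAUR differences was not tested. In RNA from whole seedlings, a change in the number of cells of a type and a change in RNA per cell cannot be told apart.

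The SAUR19-SAUR24 cluster on chromosome 5 holds auxin-inducible genes whose products promote cell expansion in the hypocotyl. SAUR19 (AT5G18010) showed the largest difference of the 32 members. Its scaled signal, the signal divided by the array's 75th percentile, was 0.567, 0.711 and 0.452 on the hy5 arrays and 0.175, 0.138 and 0.171 on the WT arrays. The difference was 1.82 on the log2 scale, or 3.54-fold (SE 0.177, adjusted p = 0.000203). SAUR22 (AT5G18050) had scaled signals of 1.11, 1.38 and 1.04 on hy5 arrays and 0.396, 0.313 and 0.362 on WT arrays, a difference of 1.71 (SE 0.139, adjusted p = 9.85e-05). SAUR23 (AT5G18060) had 0.912, 1.15 and 0.861 on hy5 arrays and 0.317, 0.284 and 0.317 on WT arrays, a difference of 1.66 (SE 0.128, adjusted p = 8.08e-05). For each of these 3 genes the lowest hy5 array was well over the highest WT array.

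SAUR21 (AT5G18030) had scaled signals of 0.615, 0.712 and 0.46 on hy5 arrays and 0.228, 0.181 and 0.213 on WT arrays, a difference of 1.51 (SE 0.172, adjusted p = 0.0004). SAUR24 (AT5G18080) had 0.212, 0.257 and 0.16 on hy5 arrays and 0.0657, 0.0718 and 0.0841 on WT arrays, a difference of 1.49 (SE 0.181, adjusted p = 0.000523). SAUR20 (AT5G18020) had the smallest rise of the cluster, with 0.304, 0.38 and 0.252 on hy5 arrays and 0.177, 0.142 and 0.138 on WT arrays. Its difference was 1.03 (SE 0.169, adjusted p = 0.00195), so that it lay just past 2-fold. The groups did not overlap for any of the 6 genes, and in all 6 hy5 replicate 2 was the highest array and hy5 replicate 3 the lowest of the mutant. The median log2 signal of the 11 seed-stage transcripts ran in the same order, -2.34, -2.01 and -2.86 on hy5 replicates 1, 2 and 3, while their summed signal was highest on hy5 replicate 1 and lowest on hy5 replicate 3. The order was not particular to them. It also held for HY5 (-5.53, -5.14 and -5.88) and for the median of SAUR genes outside the chosen loci (-2.98, -2.71 and -3.20). The tested genes beside this cluster shared it (-1.23, -1.09 and -1.28). It did not hold for the root hair markers or for the partner and upstream lists below. The part of the seed-stage transcripts in the SAUR differences was not tested. SAUR20 fell under 2-fold without hy5 replicate 2 (0.87), WT replicate 2 (0.98) or WT replicate 3 (0.96). With normexp SAUR20 (0.56) and SAUR24 (0.64) fell under 2-fold, and after adjusting the methods' t-test over all genes only SAUR22 of the 6 was called.

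None of the genes beside this cluster passed the rule. The gene table orders 8 other protein-coding genes among the 6 SAURs or next to them, and 5 of these could be tested. The SAUR genes had a median of 1.58 and these 5 a median of -0.23, with 1 of the 5, AT5G18065, too dim in WT to rise well above background. At an unadjusted p under 0.05 limma placed 1 of the 5 higher and 1 lower, and the methods' t-test 0 higher and 1 lower. AT5G18040, which lies between SAUR21 and SAUR22, had a difference of -0.74 (SE 0.115, adjusted p = 0.00158). AT5G18065, next to SAUR23, passed the adjusted p alone (0.0415), but no fold could be bounded. DRT101 (AT5G18070), just before SAUR24, had -0.25 (SE 0.145, adjusted p = 0.186). Around all 6 clusters 22 of 34 neighbours were tested, of which 1 rose, 0 fell, and the median was 0.01. By the limma adjusted p alone, and also at an unadjusted p under 0.05, 5 neighbours were higher and 3 lower. The methods' t-test placed 3 higher and 3 lower. The 1 neighbour that rose was CRK26 (AT4G38830), a receptor-like kinase gene next to SAUR14, at 1.23 (SE 0.208, adjusted p = 0.00223), well above background on 2 of the 3 WT arrays. These neighbours were chosen after the members' values had been seen. The difference between members and neighbours was not tested.

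**Figure D2:**
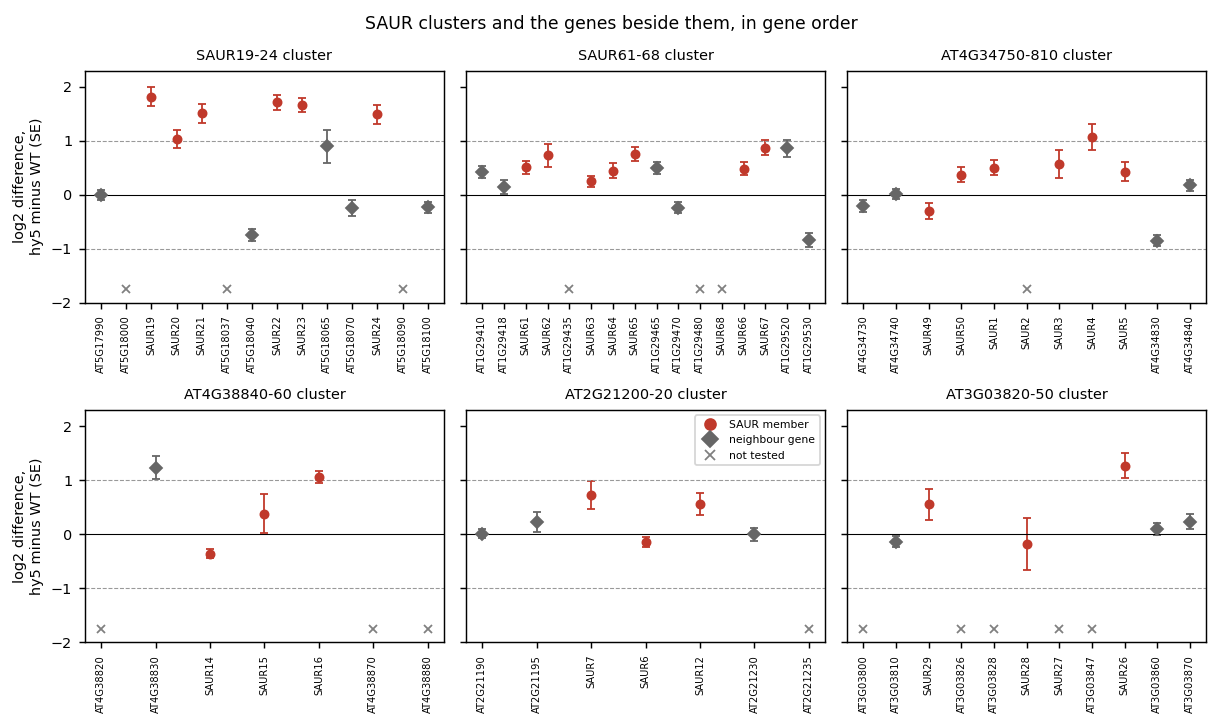
log2 difference (hy5 minus WT, with the SE of the fit) of each SAUR member and of the genes beside it, in gene order along the chromosome without distances; crosses mark genes not tested and dashed lines 2-fold. In the SAUR19-SAUR24 cluster the 6 members lie between 1.03 and 1.82, while the 4 genes among and beside them that were well above background in both genotypes lie between -0.74 and -0.01; AT5G18065, too dim in WT, is drawn at its fitted value of 0.90.

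In the SAUR61-SAUR68 cluster on chromosome 1 no member passed the rule. Of 8 members 7 were tested, and 6 of them were higher by the limma adjusted p alone, with a median of 0.51 and a range from 0.25 to 0.87 over the 7. None was past 2-fold in limma, while 7 were higher at an unadjusted p under 0.05 by limma and 5 by the methods' t-test. SAUR67 (AT1G29510) changed most, with scaled signals of 0.4, 0.485 and 0.35 on hy5 arrays and 0.249, 0.204 and 0.217 on WT arrays, a difference of 0.87 (SE 0.142, adjusted p = 0.00183). The gene table gives the symbol SAUR68 to AT1G29510 and lists the same name as a synonym of AT1G29490, so the locus code is the surer name. SAUR65 (AT1G29460) had 0.0741, 0.0789 and 0.0638 on hy5 arrays and 0.038, 0.048 and 0.0418 on WT arrays, a difference of 0.76 (SE 0.125, adjusted p = 0.00191). SAUR62 (AT1G29430) had 0.0496, 0.047 and 0.0384 on hy5 arrays and 0.0189, 0.0321 and 0.0324 on WT arrays, a difference of 0.73 (SE 0.22, adjusted p = 0.0254). SAUR62 was well above background on 2 of the 3 WT arrays. The 3 genes had no overlap between genotypes.

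SAUR61 (AT1G29420) had scaled signals of 0.0658, 0.0659 and 0.0558 on hy5 arrays and 0.0467, 0.038 and 0.0469 on WT arrays, a difference of 0.51 (adjusted p = 0.00993). SAUR66 (AT1G29500) had 0.514, 0.448 and 0.425 on hy5 arrays and 0.378, 0.311 and 0.305 on WT arrays, a difference of 0.48 (adjusted p = 0.0129). SAUR64 (AT1G29450) had 0.303, 0.275 and 0.222 on hy5 arrays and 0.184, 0.184 and 0.215 on WT arrays, a difference of 0.45 (adjusted p = 0.0265). Each again had its lowest hy5 array over its highest WT array, for SAUR64 by a narrow margin. SAUR63 (AT1G29440), whose product promotes elongation of hypocotyls and floral organs, did not pass the test. It had 0.906, 0.94 and 0.797 on hy5 arrays and 0.805, 0.719 and 0.694 on WT arrays, where the lowest hy5 array lay under the highest WT array, and its difference was 0.25 (SE 0.106, adjusted p = 0.0798). SAUR68 (AT1G29490) had 2 probes, and neither rose well above background on an array. With normexp the cluster median was 0.14, and SAUR61 (AT1G29420, -0.32), SAUR62 (AT1G29430, -0.33) and SAUR65 (AT1G29460, -0.10) changed sign. By the adjusted p alone 3 of the 7 were then higher and 2 lower.

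On chromosome 4 the loci AT4G34750 to AT4G34810 were mixed: of 6 tested members 1 rose, 2 were higher by the adjusted p alone, and the differences ran from -0.30 to 1.07 around a median of 0.46. At an unadjusted p under 0.05 limma placed 4 higher, and the methods' t-test 0. SAUR4 (AT4G34800) had scaled signals of 1.25, 2.55 and 1.42 on hy5 arrays and 0.766, 0.759 and 0.849 on WT arrays. All hy5 arrays were above all WT arrays, but hy5 replicate 2 stood far over the other two. The difference was 1.07 (SE 0.246, adjusted p = 0.00866), and without hy5 replicate 2 it was 0.75, under 2-fold. Among the 9 calls SAUR4 was the one that the methods' t-test, even unadjusted, did not make. SAUR1 (AT4G34770) had 0.439, 0.504 and 0.376 on hy5 arrays and 0.298, 0.282 and 0.351 on WT arrays, a difference of 0.50 (SE 0.138, adjusted p = 0.0184) with no overlap.

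SAUR50 (AT4G34760), which light turns up in cotyledons and which promotes their opening and expansion, had scaled signals of 1.62, 2.17 and 2.17 on hy5 arrays and 1.52, 1.4 and 1.64 on WT arrays. The groups overlapped by 1 array, and the difference of 0.37 missed the threshold (SE 0.137, adjusted p = 0.0514). SAUR3 (AT4G34790) had 0.0874, 0.0823 and 0.0429 on hy5 arrays and 0.0478, 0.0435 and 0.0449 on WT arrays, a difference of 0.57 (SE 0.254, adjusted p = 0.0926). SAUR5 (AT4G34810) had 0.232, 0.206 and 0.14 on hy5 arrays and 0.144, 0.144 and 0.133 on WT arrays, a difference of 0.43 (SE 0.18, adjusted p = 0.0809). In both genes hy5 replicates 1 and 2 were above WT, while hy5 replicate 3 lay among the WT arrays or just under them. SAUR49 (AT4G34750) ran the other way, with 2.18, 3.07 and 2.26 on hy5 arrays and 3.25, 2.89 and 3.0 on WT arrays. Its difference was -0.30 (SE 0.143, adjusted p = 0.116), and its second probe gave -0.25 (SE 0.135, adjusted p over all probes = 0.155), so both probes had the same sign and neither passed the test. SAUR2 (AT4G34780) did not rise well above background anywhere and was not tested. With normexp the median of these loci was 0.19, SAUR4 was 0.92, and SAUR3 changed sign (-0.33).

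The 3 neighbours AT4G38840 to AT4G38860 lay on both sides of 0. SAUR16 (AT4G38860) rose, with scaled signals of 0.636, 0.787 and 0.746 on hy5 arrays and 0.357, 0.325 and 0.352 on WT arrays, a difference of 1.06 (SE 0.108, adjusted p = 0.000249). SAUR14 (AT4G38840) was the only tested member lower by the adjusted p, with 2.76, 2.84 and 2.81 on hy5 arrays and 3.65, 3.34 and 3.85 on WT arrays. Its difference of -0.36 (SE 0.091, adjusted p = 0.0121) was under 2-fold, and all hy5 arrays lay under all WT arrays. SAUR14 and SAUR16 are, like SAUR50, known as light-induced SAUR genes of the cotyledon, and here they had opposite signs under every scaling tried. SAUR16 was no longer past 2-fold with normexp (0.73), and it was just under 2-fold without hy5 replicate 2 (1.00). SAUR15 (AT4G38850), the auxin-induced SAUR-AC1, had 0.0145, 0.0113 and 0.00749 on hy5 arrays and 0.00472, 0.0117 and 0.0101 on WT arrays, where it was not well above background. The groups overlapped, and the difference was 0.38 (SE 0.368, adjusted p = 0.413). The bound that its signal allows is under 1-fold, so no fold is given. With SAUR15 set to no change the median of the 3 genes was 0.00. With normexp the median was -0.23, with SAUR15 at -0.66. The median of 0.38 ranged from -0.02 without WT replicate 1 and 0.16 without hy5 replicate 1 to 0.63 without WT replicate 2 and 0.64 without hy5 replicate 3.

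None of the 3 loci AT2G21200 to AT2G21220 on chromosome 2 passed the limma test, although 2 were higher at an unadjusted p under 0.05, and 0 by the methods' t-test. SAUR12 (AT2G21220) had scaled signals of 0.154, 0.282 and 0.177 on hy5 arrays and 0.135, 0.129 and 0.137 on WT arrays. The groups did not overlap, hy5 replicate 2 stood above the rest, and the difference was 0.56 (SE 0.209, adjusted p = 0.054). SAUR7 (AT2G21200) had 0.0117, 0.0137 and 0.00839 on hy5 arrays and 0.00616, 0.00504 and 0.00963 on WT arrays, where it was not well above background. Its difference was 0.72 (SE 0.264, adjusted p = 0.0508), with 1 hy5 array under the highest WT array, and no fold could be bounded. With normexp SAUR7 was -0.63, and with cyclic loess 1.21. SAUR6 (AT2G21210) had 1.13, 1.13 and 1.08 on hy5 arrays and 1.36, 1.22 and 1.14 on WT arrays, a difference of -0.15 (SE 0.0978, adjusted p = 0.222). The hy5 arrays of SAUR6 lay under the WT arrays, by less than the spread within WT. The median of the 3 was 0.56, or 0.00 with SAUR7 set to no change, -0.05 with normexp and 0.30 without hy5 replicate 2.

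At AT3G03820 to AT3G03850 on chromosome 3, a group that includes SAUR26, SAUR27 and SAUR28, genes known for their response to temperature, 1 of 3 tested members rose. SAUR26 (AT3G03850) had scaled signals of 0.108, 0.108 and 0.0743 on hy5 arrays and 0.0288, 0.0525 and 0.0412 on WT arrays. Its lowest hy5 array lay over its highest WT array, and the difference was 1.27, or 2.41-fold (SE 0.239, adjusted p = 0.00356). SAUR29 (AT3G03820) had 0.186, 0.165 and 0.0912 on hy5 arrays and 0.114, 0.108 and 0.073 on WT arrays, a difference of 0.55 (SE 0.286, adjusted p = 0.142). Its hy5 replicate 3 lay among the WT arrays. SAUR28 (AT3G03830) had 0.0141, 0.0166 and 0.00551 on hy5 arrays and 0.0138, 0.00719 and 0.0193 on WT arrays, a difference of -0.19 (SE 0.48, adjusted p = 0.761) with full overlap, and it turned positive with quantile normalization (0.02) and cyclic loess (0.18). SAUR27 (AT3G03840) was well above background on 1 hy5 array only and was not tested. With normexp SAUR26 was 0.10 (adjusted p = 0.392) and was not called, and the median of the 3 was -0.005. The offset of 50 in that setting weighs most on dim probes such as this one. The offset and the background model were not separated. That median was 0.55 in the main scaling, 0.35 without hy5 replicate 1 or WT replicate 3, and 0.86 without hy5 replicate 3.

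Among the lone genes, 3 of 4 tested were higher by the limma adjusted p alone, and the same number at an unadjusted p under 0.05, or 2 by the methods' t-test. None was past 2-fold. SAUR10 (AT2G18010) had scaled signals of 0.0373, 0.0465 and 0.0356 on hy5 arrays and 0.017, 0.024 and 0.0211 on WT arrays, a difference of 0.95 (SE 0.158, adjusted p = 0.00206). SAUR10 was well above background on 2 of the 3 WT arrays, so it was tested through its hy5 arrays. Over the lone genes well above background on all 6 arrays, which leave SAUR10 out, the median was 0.71. SAUR8 (AT2G16580) had 0.369, 0.393 and 0.338 on hy5 arrays and 0.196, 0.205 and 0.208 on WT arrays, a difference of 0.85 (SE 0.0929, adjusted p = 0.000333). SAUR9 (AT4G36110), one of the SAUR proteins shown to inhibit clade D phosphatases, had 0.194, 0.273 and 0.236 on hy5 arrays and 0.136, 0.143 and 0.148 on WT arrays, a difference of 0.71 (SE 0.133, adjusted p = 0.0036). In these 3 genes the genotypes did not overlap. The second probe of SAUR9 did not rise well above background in WT and gave 0.11 (SE 0.247, adjusted p over all probes = 0.735), so the 2 probes of SAUR9 disagreed in size. SAUR36 (AT2G45210), a gene linked to leaf senescence, had 0.271, 0.259 and 0.241 on hy5 arrays and 0.249, 0.259 and 0.243 on WT arrays, a difference of 0.04 (SE 0.0888, adjusted p = 0.749), and the arrays of both genotypes were interleaved. SAUR25 (AT4G13790) was well above background on 2 hy5 arrays and on no WT array and was not tested. With normexp SAUR10 (-0.44) and SAUR36 (-0.11) changed sign, while SAUR8 (0.47) and SAUR9 (0.31) did not.

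**Figure D3:**
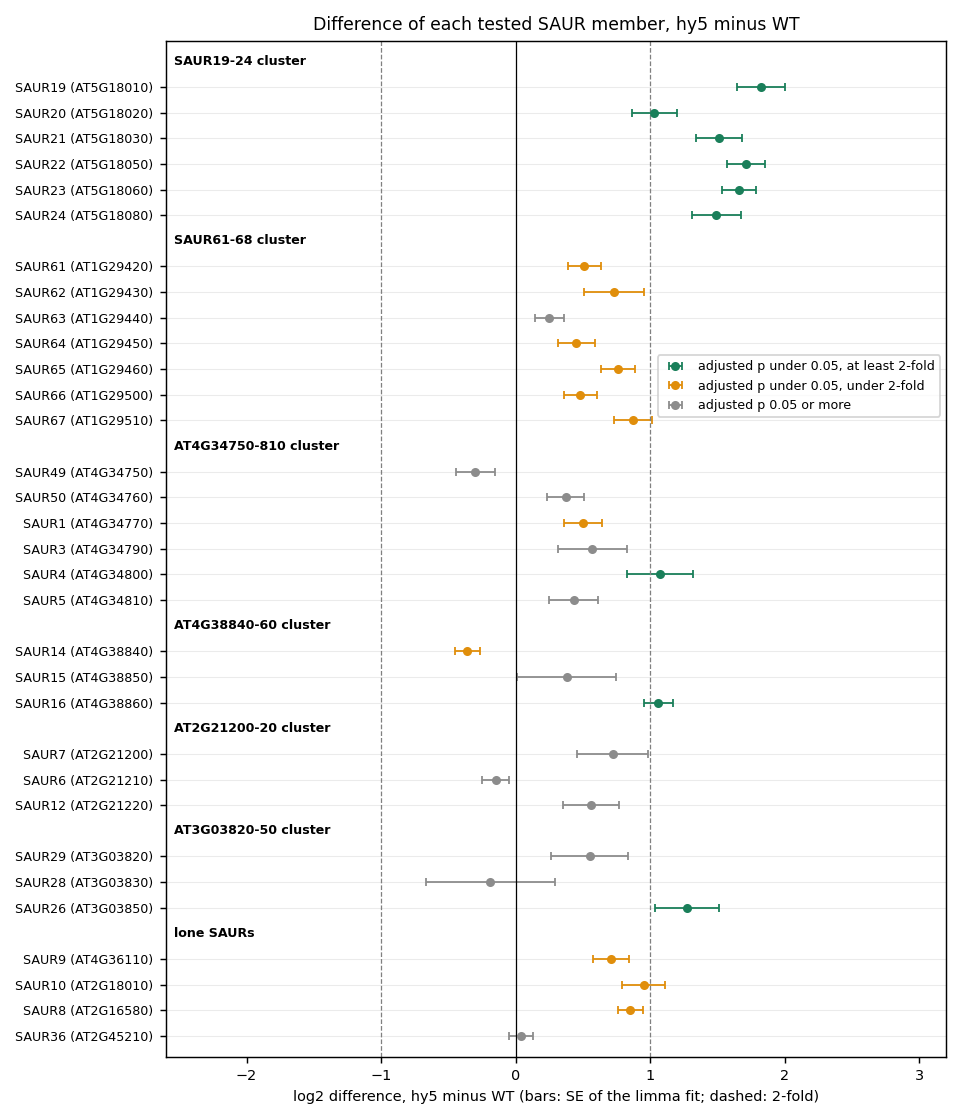
log2 difference (hy5 minus WT) of each of the 32 tested members with the SE of the limma fit, grouped by cluster; the dashed lines mark 2-fold and the colour gives the test. The SAUR19-SAUR24 genes lie between 1.03 and 1.82, all past 2-fold, whereas 3 of the 26 other members do; with normexp background correction 4 of the 6 stay past 2-fold and none of the 3.

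The arrays of the mutant were not alike in the size of the shift. Each gene was set relative to its own mean over the WT arrays, and the median was taken over a cluster on each array. For the SAUR19-SAUR24 cluster this median was 1.58, 1.86 and 1.32 on hy5 replicates 1, 2 and 3, and 0.13, -0.15 and 0.05 on WT replicates 1, 2 and 3. For the SAUR61-SAUR68 cluster it was 0.65, 0.59 and 0.37 on hy5 arrays and 0.10, -0.07 and -0.02 on WT arrays. These 2 clusters kept every hy5 median over every WT median, with gaps of 1.19 and 0.27. So did the lone genes (gap 0.62), the loci AT4G34750 to AT4G34810 (0.10) and the loci AT2G21200 to AT2G21220 (0.17). In the clusters AT4G38840 to AT4G38860 and AT3G03820 to AT3G03850 the median on hy5 replicate 3 was -0.14 and -0.08 and lay under all WT arrays. Over all 32 tested members hy5 replicate 3 was the lowest mutant array in 25 and hy5 replicate 2 the highest in 22. The share of all genes with this order is not given, so these counts, and the order of the SAUR19-SAUR24 genes above, have no reference. Across all spots, hy5 replicate 2 also had the most well above background, 78.7% against 75.4% and 75.9% on hy5 replicates 1 and 3. Without hy5 replicate 2, 6 of the 9 calls remained, and SAUR20, SAUR4 and SAUR16 were no longer called.

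**Figure D4:**
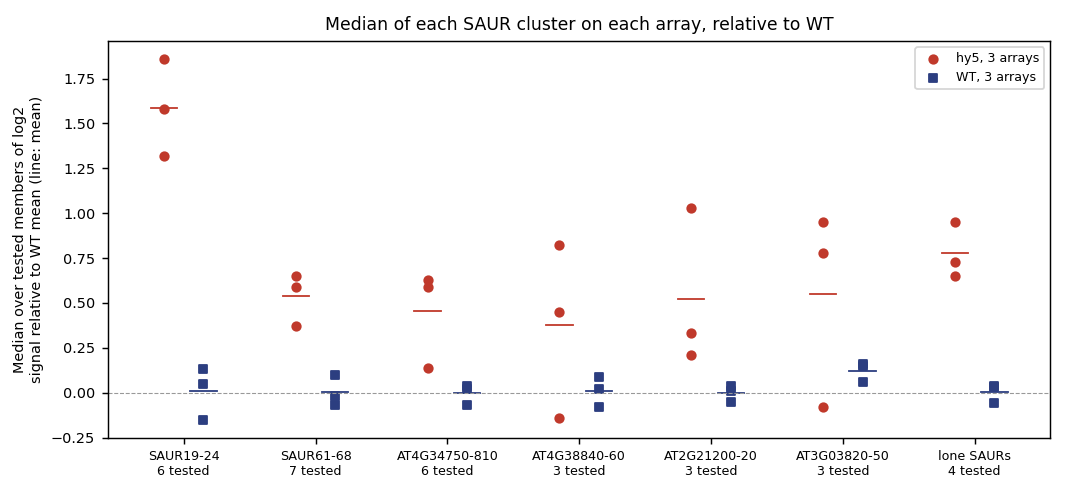
Median over the tested members of each cluster of log2 signal relative to each gene's own mean over the WT arrays, with 1 point per array, hy5 left of WT and a line at the mean of 3 arrays. In the SAUR19-SAUR24 cluster the lowest hy5 point lies 1.19 above the highest WT point, whereas in 2 clusters of 3 tested genes hy5 replicate 3 lies under the WT points.

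SAUR genes outside the chosen loci spread more widely. The gene table names 44 further SAUR loci, of which 35 were tested. Of these 6 rose and 2 fell, against 6.55% and 4.84% of all genes tested. Their median was 0.46 with a range from -1.10 to 4.04. At the adjusted p alone 18 were higher and 6 lower, against 26.3% and 26.6% of all genes. The same shares are the reference for the limma counts of neighbours above and of the lists below. SAUR11 (AT5G66260) had the largest difference, with scaled signals of 0.63, 0.572 and 0.465 on hy5 arrays and 0.0379, 0.0354 and 0.0283 on WT arrays, 4.04 on the log2 scale (SE 0.154, adjusted p = 1.02e-05). That exceeded every chosen member. SAUR54 (AT1G19830) did not rise well above background in WT and was at least 2.23-fold higher in hy5 (adjusted p = 0.00147). SAUR52 (AT1G75590) was higher by 1.41 and SAUR53 (AT1G19840), next to SAUR54 by locus code, by 1.30 (adjusted p = 0.000145 and 0.000586). SAUR17 (AT4G09530) had 1.19 (adjusted p = 0.000386), and SAUR75 (AT5G27780), too dim in WT to rise well above background, had 1.32 (adjusted p = 0.0384) with no fold that could be bounded. The 2 that fell were SAUR41 (AT1G16510), at -1.10 (adjusted p = 0.000933), and SAUR46 (AT2G37030), at -1.03 (adjusted p = 0.00128). The gene table gives the name SAUR21 also to AT5G01830, which is counted among these 44.

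The partners of SAUR proteins moved in both directions. Of the 9 clade D phosphatase genes, the proteins that SAURs inhibit, 1 rose and 0 fell, and the median was 0.06. At the adjusted p alone, as at the unadjusted p, limma placed 2 higher and 4 lower, and the methods' t-test placed 2 higher and 3 lower. The gene that rose was AT5G66080, with scaled signals of 0.813, 0.957 and 0.887 on hy5 arrays and 0.373, 0.347 and 0.44 on WT arrays, a difference of 1.20 (SE 0.119, adjusted p = 0.000222). With normexp it was 0.93, under 2-fold. PP2C.D1 (AT5G02760) had 5.17, 4.8 and 4.35 on hy5 arrays and 3.67, 3.46 and 3.51 on WT arrays, a difference of 0.43 (SE 0.0967, adjusted p = 0.00808), with no overlap but under 2-fold.

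Of 11 plasma membrane proton ATPase genes, the pumps downstream of these phosphatases, 10 were tested, with 0 that rose, 2 that fell and a median of -0.41. Of the 10, HA9 (AT1G80660, -0.48) and AHA10 (AT1G17260, -0.72) were dim, well above background on 1 and 2 WT arrays. The summed scaled signal of the 10 was 60.3 to 74.8 on hy5 arrays and 56.3 to 58.6 on WT arrays. At an unadjusted p under 0.05 limma placed 3 higher and 4 lower, and the methods' t-test 2 higher and 4 lower. HA5 (AT2G24520) fell, with scaled signals of 0.125, 0.133 and 0.129 on hy5 arrays and 0.31, 0.288 and 0.31 on WT arrays, a difference of -1.23 (SE 0.0858, adjusted p = 5.65e-05). HA8 (AT3G42640) fell, with 0.082, 0.0549 and 0.105 on hy5 arrays and 0.173, 0.193 and 0.175 on WT arrays, a difference of -1.21 (SE 0.218, adjusted p = 0.00296), or -0.95 without hy5 replicate 2. The 2 pumps known as the main ones of seedlings did not pass 2-fold. AHA2 (AT4G30190) had 40.0, 50.9 and 40.1 on hy5 arrays and 33.3, 31.8 and 34.6 on WT arrays, a difference of 0.39 (SE 0.118, adjusted p = 0.0274), every hy5 array above every WT array. AHA1 (AT2G18960) had 14.3, 18.0 and 16.2 on hy5 arrays and 17.0, 16.9 and 16.5 on WT arrays, a difference of -0.06 (SE 0.107, adjusted p = 0.635), with the groups overlapping.

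Upstream of SAUR genes, auxin acts through TIR1 and AFB receptors and through activating auxin response factors, and PIF and brassinosteroid factors act with ARF6 at growth genes. None of the 11 receptor and response factor genes passed the rule in either direction by limma. At the adjusted and at the unadjusted p alone 1 was higher and 2 lower, the methods' t-test placed 0 higher and 2 lower, and the median was -0.12. TIR1 (AT3G62980) had scaled signals of 6.66, 7.66 and 7.12 on hy5 arrays and 7.55, 7.04 and 8.79 on WT arrays, a difference of -0.12 (SE 0.113, adjusted p = 0.394). ARF6 (AT1G30330) had 1.11, 1.06 and 1.11 on hy5 arrays and 1.17, 1.13 and 1.08 on WT arrays, a difference of -0.04 (SE 0.0843, adjusted p = 0.692). Both genes had overlapping groups. None of the 7 PIF and brassinosteroid factors passed the rule, and their median was 0.04. At an unadjusted p under 0.05 limma and the methods' t-test each placed 1 higher and 2 lower. At the limma adjusted p alone 0 were higher and 2 lower, PIF5 (AT3G59060) at -0.78 (adjusted p = 0.000908) and PIF7 (AT5G61270) at -0.83 (adjusted p = 0.00661). BZR1 (AT1G75080) had 2.28, 2.31 and 2.51 on hy5 arrays and 2.62, 2.67 and 2.59 on WT arrays, where every hy5 array lay under every WT array, but the difference of -0.15 did not pass the test (SE 0.0856, adjusted p = 0.167).

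**Figure D5:**
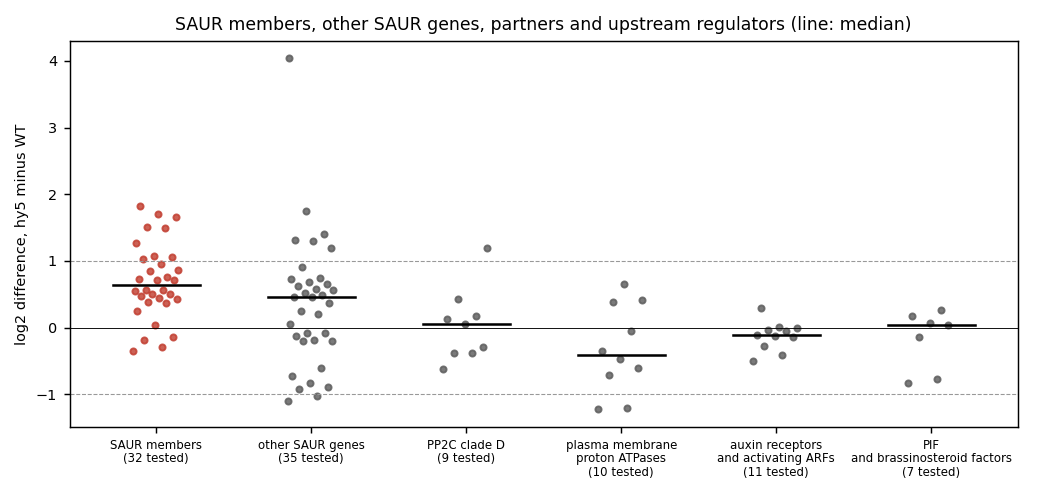
log2 difference (hy5 minus WT) of each tested gene, for the SAUR members, the other SAUR genes, the clade D phosphatases and proton ATPases that act downstream of SAUR proteins, and the upstream auxin and growth factors; 1 point is 1 gene, the line is the median and dashed lines mark 2-fold. The medians are 0.64 for the members and 0.46 for the other SAUR genes, and lie between -0.41 and 0.06 for the partner and upstream lists.

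Members of a SAUR cluster can be near-identical, and a probe may then bind transcripts of its neighbours. The probe sequences were not analysed here, so how far the 6 values of the SAUR19-SAUR24 cluster, or the 7 of the SAUR61-SAUR68 cluster, are separate measurements was not tested. The fold of the 6 probes was 2.04 for SAUR20 and lay between 2.80 and 3.54 for the others. This range does not show if they are separate measurements. The clusters were compared by counts and medians only, since their genes are not replicates of one another.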

How the data were processed

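The authors hybridised Cy3-labelled RNA of 3 hy5 and 3 WT samples to Agilent arrays and extracted intensity values with Agilent Feature Extraction 10.7.3. The deposited intensity (processed signal, background subtracted) was divided by its array's 75th percentile (control spots left out), as the methods state, and taken to log2. A deposited table of ratio values, the same signals scaled by the authors, served as an alternative. Spots of a probe were averaged. Outlier flags removed 30 probes, and 0 spots were saturated. A probe was tested if all 3 arrays of hy5, or all 3 of WT, read it well above background; the brightest such probe stood for its gene. The two-sided test of hy5 against WT was limma's (version 3.58.1, R 4.3.3, functions lmFit and eBayes) over 21590 genes, with Benjamini-Hochberg adjustment. A gene was called at an adjusted p under 0.05 and at least 2-fold. On simulated data 191 of 200 genes changed 4-fold were recovered with 1 false call, and 180 of 200 changed 2.5-fold with 4.

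The alternatives were normexp (offset 50), quantile, median and cyclic loess scaling, the filter on dim probes, the handling of probes, the deposited table, the methods' t-test (Welch, on scaled signals), a replicate block, an intensity trend, and each array left out. The rule without a fold limit, members at their bound and the neighbouring genes were added after seeing the data. The bound of a probe not well above background in a genotype took, on each of its arrays, the higher of its own signal and the lowest signal well above background there. In the cluster medians a member whose bound was under 1-fold was set to no change. Members and lists were chosen with earlier results of these data known. Values on every array are given for each tested member, for HY5, for the genes of the partner and upstream lists that were called, and for TIR1, ARF6, BZR1, AHA1, AHA2 and PP2C.D1. Other SAUR genes were those so named in a RefSeq gene table (TAIR10.1), which matched 28595 of 29030 locus codes and was used for names and gene order only. SAUR11 and the other SAUR genes named were those called, and the neighbours, PIF5 and PIF7 were named after their values were seen. No pair of arrays held identical values. Promoter, protein and probe sequences were not analysed here.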

Additional observations from a re-analysis of the deposited data

How the results depend on the processing

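Over the alternative settings the 32 tested members gave 603 values, of which 567 kept both direction and side of the threshold, 18 were no longer called, 3 became called and 15 changed sign; of 190 values of the 10 other named genes 185 were kept, 2 were no longer called and 3 changed sign. With normexp the median of all genes was -0.199, 4 members were called higher and 9 were lower by the adjusted p alone. Cluster medians were then 1.20 (SAUR19-SAUR24), 0.14 (SAUR61-SAUR68), 0.19 (AT4G34750 to AT4G34810), -0.23 (AT4G38840 to AT4G38860), -0.05 (AT2G21200 to AT2G21220), -0.005 (AT3G03820 to AT3G03850), 0.10 (lone genes) and 0.12 (all members). The genes that changed sign with normexp were AT1G29420 (-0.32), AT1G29430 (-0.33), AT1G29460 (-0.10), AT4G34790 (-0.33), AT4G38850 (-0.66), AT2G21200 (-0.63), AT3G03820 (-0.005), AT2G18010 (-0.44), AT2G45210 (-0.11) and AT2G18960 (0.00095). AT3G03830 was 0.02 with quantile normalization and 0.18 with cyclic loess, and AT2G18960 was 0.0023 averaged over probes. Why these values moved was not tested.

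The median of AT4G38840 to AT4G38860 was 0.83 with cyclic loess. That of AT2G21200 to AT2G21220 was 0.20 over the genes well above background on all 6 arrays, where fewer genes are tested. Both were 0.00 with SAUR15 and SAUR7, whose bounds are under 1-fold, set to no change. The lone genes had 0.63 averaged over probes. Without the filter on dim probes 29004 genes were tested, 10 members were called higher, the 9 and SAUR25 (AT4G13790), 1 was called lower, SAUR2 (AT4G34780, -1.37), not well above background on any array, and 2 were lower by the adjusted p alone. The methods' t-test, adjusted over all genes, called 2 members higher, SAUR22 and SAUR16, with 4 higher and 0 lower by the adjusted p alone. Unadjusted, it called 8 of the same 9.

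Leaving out 1 array at a time gave 6 to 10 members called higher, 16 to 23 higher and 1 to 2 lower by the adjusted p alone, and medians of 0.54 to 0.85 over all members, 1.45 to 1.71 for SAUR19-SAUR24, 0.44 to 0.59 for SAUR61-SAUR68, 0.38 to 0.62 for AT4G34750 to AT4G34810, 0.30 to 0.68 for AT2G21200 to AT2G21220, 0.35 to 0.86 for AT3G03820 to AT3G03850, 0.69 to 0.84 for the lone genes, and -0.02 to 0.64 for AT4G38840 to AT4G38860. The 4 genes below changed sign there, with ranges of -0.02 to 0.64 (AT4G38850), -0.58 to 0.30 (AT3G03830), -0.003 to 0.08 (AT2G45210) and -0.14 to 0.02 (AT2G18960). With a replicate block the same 9 members were called, and 1420 genes were higher and 1050 lower over all genes. Deviations of same-numbered arrays from their genotype means correlated at -0.0252, -0.0872 and 0.0848, and 2 of 6 arrays correlated best with their own number. A slide block could not be fitted, since 0 slides held both genotypes. Signals near background limit SAUR7, SAUR15 and SAUR28 and the 4 members not tested, and also SAUR10 and SAUR62, well above background on 2 of the 3 WT arrays.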
